A study of Mus musculus with 8 samples.

Results

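Receptor tyrosine kinases are single-pass membrane proteins that bind a growth factor, a guidance ligand or matrix outside the cell and phosphorylate tyrosines inside it. The phosphorylated tail recruits adaptors, which pass the signal to the Ras and ERK, PI3-kinase and phospholipase C pathways. In mouse embryonic stem cells FGF and ERK signalling favours exit from the naive state, and the MEK inhibitor of 2i medium blocks that branch. The 46 receptor genes described here were chosen by symbol, and each was represented by its probe with the highest mean value over the arrays, with the other probes as a check. Of the 46, 45 had a probe among 19057 symbols on the array, with 101 probes between them, and Ephb2 was not analysed here.

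Illumina bead arrays gave RNA levels for 8 samples of pre-iPSCs, cells held partway through reprogramming, here made from female mouse neural stem cells of the 129/MF1 strain with an Oct4-GFP-IRES-puro reporter. The 4 groups of 2 arrays carried Nanog with an empty vector (Nanog), Nanog with Sin3a (Nanog+Sin3a), Sin3a with an empty vector (Sin3a), or empty vectors alone (EV). All were stable PiggyBac transfectants with a CAG promoter, drug-selected, kept in serum with LIF and taken at day 0, before any switch to 2i medium. Nanog is a homeodomain factor of the pluripotency network and Sin3a the scaffold of a histone deacetylase co-repressor complex; the series title names their cooperation in reprogramming. The labels do not say whether the arrays of a group came from separate cultures, so p-values measure the spread between these arrays, which may be technical.

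Values are deposited intensities on a linear scale with background subtracted. Values at or below 16 were set to 16, a floor of 4 in log2 units, and 35.7% to 36.1% of the 45281 probes of an array lay above it. The Nanog probe read 365 and 486 with Nanog and 290 and 285 with Nanog+Sin3a, against values from -12.2 to -3.60 on the Sin3a and EV arrays. The Sin3a probe read 1485 and 1483 with Nanog+Sin3a and 1182 and 1142 with Sin3a, against 329 and 262 with EV. Of 10 pluripotency markers, 7 exceeded the floor on at least 2 of 7 arrays. They included Pou5f1 at 867 to 1167 on the 8 arrays, Klf4, Sall4 and Dppa5a. Nanog was counted too, though above the floor only on arrays with its transgene. Tfcp2l1 and Zfp42 were each above the floor on 2 of 7 arrays. Dppa3, Esrrb and Utf1 were at or below it on all 7. Of 6 neural stem cell markers, Nes and Sox2 exceeded the floor on at least 2 of 7 arrays, and Fabp7, Olig2 and Pax6 were at or below it on all 7.

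The second Sin3a array stood apart. Of probes averaging 5 to 8 in log2 units, 80.1% differed by more than 1 (log2) between the Sin3a arrays, against 0.205% between the EV arrays, and at 9 or above 0% and 0.0375% did so. Among the 22 receptors tested below, the median difference between replicate arrays was 0.88 (log2) for Sin3a, against 0.12 for EV, and 8 receptors differed by more than 1 between the Sin3a arrays. Tek read 35.2 on the first and 151 on the second Sin3a array, and Ephb1 read 176 and 13.2. The comparisons that do not need the Sin3a group as a pair therefore come from the 7 other arrays, and those with it come from all 8 arrays on bright features, those averaging more than 9 in log2 units (intensity 512).

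**Figure D1:**
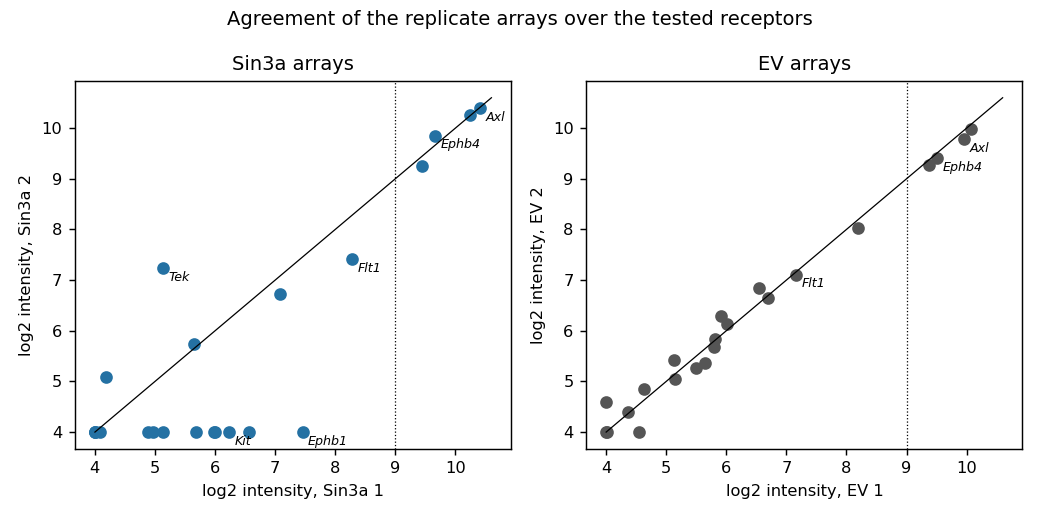
Log2 intensity of the 22 tested receptors on the second array of a group (y) against the first (x), for Sin3a (left) and EV (right), with the line of equality and a dotted line at 9. The EV points follow the line, while Ephb1 and Kit sit at the floor of 4 and Tek well above the line on the second Sin3a array; Axl and Ephb4, above 9, agree in both groups.

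A group of 23 of the receptors gave too little signal in these cells to enter the 7-array fit. Of the 45 receptors with a probe, 8 were, by their brightest probe, at or below 16 on all 8 arrays. They were Erbb3, the kinase-impaired partner of the ErbB family, Csf1r, the macrophage colony-stimulating factor receptor, Tie1, an orphan endothelial receptor, Mst1r, the receptor for macrophage-stimulating protein, Ntrk3, a neurotrophin receptor, Musk, the agrin receptor subunit of muscle, Ltk and the kinase-dead Ephb6. A further 10 (Alk, Epha1, Epha5, Epha7, Ephb3, Fgfr4, Ntrk2, Pdgfrb, Ror1 and Ror2) were, by their brightest probe, at or below 16 on 7 arrays and read from 21.1 (Fgfr4) to 211 (Pdgfrb) on the second Sin3a array alone. Ddr2, Flt3, Flt4, Kdr and Tyro3 exceeded 16 on 1 of the 7 arrays, the highest being Ddr2 at 25.9 on the second Nanog array. None of these 23 entered the 7-array fit, while Ddr2, Flt4 and Tyro3 passed the filter with all 8 arrays. For Alk, Epha5, Epha7 and Ntrk2 the second Sin3a array decided which probe was the brightest. A second Epha7 probe read 23.0, 18.5 and 17.4 on 3 of the 7 arrays, and with probes chosen on those 7 arrays 23 receptors were tested and the counts of calls below stayed at 5, 7, 0 and 6.

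The 22 tested receptors, those above the floor on at least 2 of 7 arrays, ran from bright to barely measured. Ryk, a Wnt-binding receptor with an inactive kinase domain, Axl, which binds the vitamin K-dependent ligand Gas6, and Ephb4, a receptor for ephrin-B2, were the receptors above a mean log2 value of 9. Egfr, the epidermal growth factor receptor, read 372 to 696 over the 8 arrays and lay just under that line. Flt1, a VEGF receptor, Ephb1 and Epha2, receptors for ephrins, had medians of 256, 246 and 120.0 over 7 arrays. Medians between 29.0 and 95 were seen for Insr (the insulin receptor), Ptk7 (a kinase-dead Wnt co-receptor), Erbb2 and Tek (the angiopoietin receptor). The same range held Ddr1 (a collagen receptor), Mertk (a receptor of the Axl class), Ret (the GDNF family receptor) and Kit (the stem cell factor receptor). Fgfr1, Fgfr2, Fgfr3, Epha3, Epha4, Met and Pdgfra had medians of 26.9 or less. Intensities of different probes are not comparable as amounts of RNA, so this order describes measurability and not abundance.

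**Figure D2:**
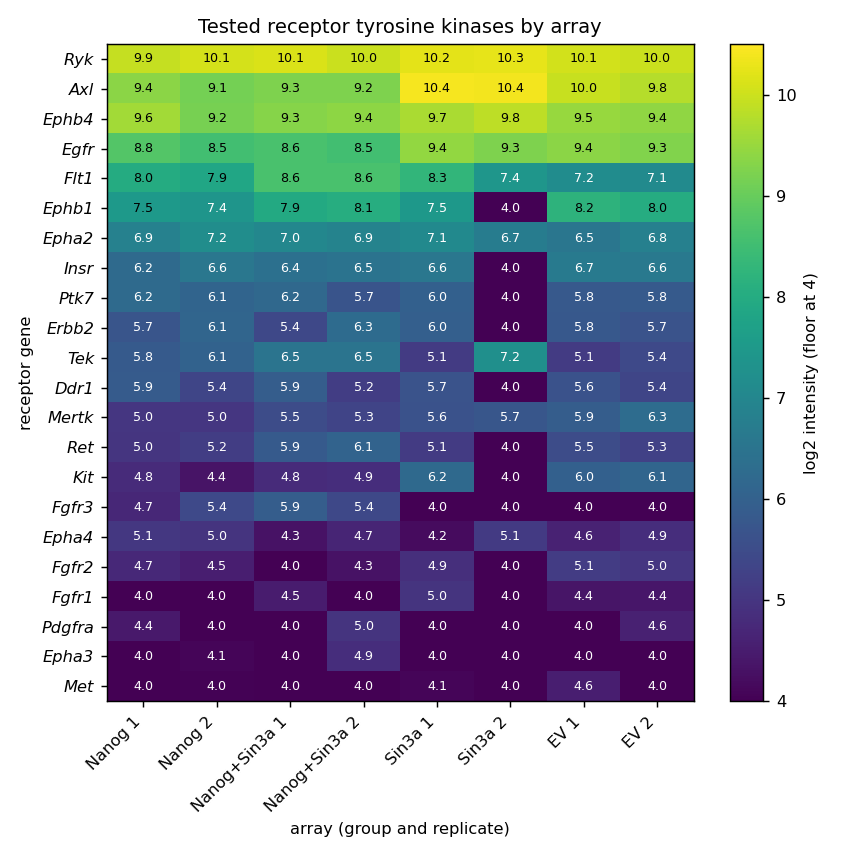
Heat map of log2 intensity, with values below the floor shown as 4.0, for the 22 tested receptors (rows, ordered by their mean over 7 arrays) on the 8 arrays (columns). Ryk, Axl and Ephb4 are bright on every array, and in the column of the second Sin3a array Ephb1, Insr, Ptk7, Erbb2, Ddr1, Ret and Kit drop to 4.0.

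The results turn on 6 of these receptors, 3 higher and 3 lower with Nanog. They passed between all arrays with Nanog and the arrays without it, the second Sin3a array left out. Their promoters are shown so that both sets can be compared. Each is 300 bases from RefSeq on build GRCm38.p6, from 250 bases before the transcription start to 50 after it, 5′ to 3′ on the gene's strand. RefSeq promoters were matched by symbol for 39 of the 46 receptors. Capitals mark, on either strand, the GC box GGGCGG, the TATA box TATAAA, the ETS site CCGGAA and the homeodomain word TAATGG; no matches overlapped in these 6 windows. Of 32851 promoters of this length, 35.7% held the GC box, 13.6% the TATA box, 14.9% the ETS site and 7.73% the homeodomain word.
The receptors that rose were Flt1 at chr5:147725962-147726261 (minus strand), Tek at chr4:94739039-94739338 (plus strand) and Fgfr3 at chr5:33721474-33721773 (plus strand) (the first of 2 starts).
Flt1: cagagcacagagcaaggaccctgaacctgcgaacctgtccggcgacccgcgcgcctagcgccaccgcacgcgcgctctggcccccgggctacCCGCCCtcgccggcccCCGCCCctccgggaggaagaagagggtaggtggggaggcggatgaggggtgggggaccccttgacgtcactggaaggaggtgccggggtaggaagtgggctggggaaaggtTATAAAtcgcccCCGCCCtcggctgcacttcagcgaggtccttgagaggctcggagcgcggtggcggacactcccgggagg
Tek: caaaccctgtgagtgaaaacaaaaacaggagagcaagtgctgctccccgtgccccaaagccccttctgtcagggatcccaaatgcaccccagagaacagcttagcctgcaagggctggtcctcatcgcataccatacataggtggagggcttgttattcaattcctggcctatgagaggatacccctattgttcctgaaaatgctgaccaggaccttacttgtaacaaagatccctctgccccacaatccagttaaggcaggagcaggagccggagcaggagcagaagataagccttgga
Fgfr3: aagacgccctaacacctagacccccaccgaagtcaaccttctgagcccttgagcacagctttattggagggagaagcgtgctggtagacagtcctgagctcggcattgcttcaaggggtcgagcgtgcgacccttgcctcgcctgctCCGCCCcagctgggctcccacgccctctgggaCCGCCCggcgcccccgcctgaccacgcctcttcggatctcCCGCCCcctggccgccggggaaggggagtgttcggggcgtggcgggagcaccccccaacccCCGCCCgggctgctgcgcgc
The receptors that fell were Axl at chr7:25788684-25788983 (minus strand), Egfr at chr11:16751953-16752252 (plus strand) and Kit at chr5:75574737-75575036 (plus strand) (the first of 2 starts, which lie close together).
Axl: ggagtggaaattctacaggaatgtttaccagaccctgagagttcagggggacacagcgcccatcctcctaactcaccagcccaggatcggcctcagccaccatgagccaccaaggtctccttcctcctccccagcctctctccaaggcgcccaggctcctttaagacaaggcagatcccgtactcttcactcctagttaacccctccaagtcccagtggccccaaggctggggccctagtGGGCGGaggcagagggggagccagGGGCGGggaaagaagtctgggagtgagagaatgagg
Egfr: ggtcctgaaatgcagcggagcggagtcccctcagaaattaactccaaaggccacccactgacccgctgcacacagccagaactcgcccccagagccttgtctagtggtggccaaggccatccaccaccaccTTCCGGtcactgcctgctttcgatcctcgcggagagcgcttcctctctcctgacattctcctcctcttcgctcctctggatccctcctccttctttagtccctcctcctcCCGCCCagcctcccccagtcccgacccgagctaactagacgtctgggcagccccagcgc
Kit: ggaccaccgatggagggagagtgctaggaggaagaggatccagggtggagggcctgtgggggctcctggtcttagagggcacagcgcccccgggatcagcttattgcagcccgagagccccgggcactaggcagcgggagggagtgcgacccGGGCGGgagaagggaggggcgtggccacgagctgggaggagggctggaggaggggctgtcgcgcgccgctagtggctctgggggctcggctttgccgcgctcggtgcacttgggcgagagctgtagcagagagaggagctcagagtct
The promoters did not sort by direction. Flt1 held 3 GC boxes and a TATA box, Fgfr3 held 4 GC boxes and Tek held none of the 4 words. Axl held 2 GC boxes, Kit 1, and Egfr 1 with 1 ETS site. None of the 6 held the homeodomain word in this window. CpG counts were 29 for Flt1, 26 for Fgfr3, 3 for Tek, 6 for Axl, 15 for Egfr and 20 for Kit, where the median of all promoters was 7. These matches describe letters and are not evidence of binding.

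Nanog against EV asks which receptors changed with Nanog alone. Flt1 rose and Kit, Egfr, Ephb1 and Axl fell, in limma with Benjamini-Hochberg adjustment over all 12886 features. That is 5 of 22 tested receptors (1 up, 4 down, 17 not past the threshold), or 22.7%, where 2.69% of all features were called (1.44% up, 1.25% down). The receptors' median difference was -0.07 (log2), against 0.00 over all features, so the 22 did not move 1 way. Since a gene enters the test only when above the floor somewhere, the 22 are not a sample of all 46.

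Flt1 read 256 and 231 with Nanog, against 143 and 138 with EV. Both Nanog arrays lay above both EV arrays. The rise was 1.73-fold (log2 0.79, SE 0.10, adjusted p = 0.0179, n = 2 each). A second Flt1 probe stayed below 0 on all 8 arrays and gives no check.

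Kit read 27.7 and 20.4 with Nanog, against 64.2 and 69.8 with EV. The Nanog arrays were only just above the floor, and the groups did not overlap. Kit was 2.82-fold lower (log2 -1.49, SE 0.21, adjusted p = 0.0226, n = 2 each), the largest fall of the 22 receptors in this comparison. Its 2 other probes did not exceed 16 on any of the 8 arrays.

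Egfr read 437 and 373 with Nanog, against 665 and 617 with EV. It fell by 0.66 on the log2 scale (SE 0.11, adjusted p = 0.0363, n = 2 each), and the groups did not overlap. Egfr had 6 probes, annotated to different transcripts, and 5 of them were above the floor on at least 6 of 7 arrays. Those 5 had differences from -0.88 to -0.41, all lower with Nanog.

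Axl read 665 and 563 with Nanog, against 993 and 881 with EV. It fell by 0.61 on the log2 scale (SE 0.11, adjusted p = 0.0473, n = 2 each) without overlap. Ephb1 read 184 and 169 with Nanog, against 294 and 261 with EV, also without overlap. It fell by 0.65 on the log2 scale (SE 0.12, adjusted p = 0.0468, n = 2 each). The other probes of both genes lay near or below the floor on the 7 arrays.

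Mertk, like Axl a receptor for Gas6, read 32.9 and 32.8 with Nanog, against 59.9 and 78.3 with EV. Its difference of -1.06 (log2, SE 0.20) did not pass (adjusted p = 0.0523). The calls depended on the arrays used. Dropping any 1 array of the groups Nanog, Nanog+Sin3a and EV left 0 of the 22 past the threshold, and with all 8 arrays limma called 0 of 25 tested receptors (4 at an unadjusted p under 0.05) and 0 of all 13687 features (1051 at an unadjusted p under 0.05).

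Nanog+Sin3a was set against EV to see the receptors that differed with both transgenes. Flt1, Tek and Fgfr3 rose, and Kit, Egfr, Axl and Fgfr2 fell. The 7 calls (3 up, 4 down, 15 not past the threshold) were 31.8% of the 22 tested receptors, where 7.45% of all features were called (3.78% up, 3.67% down). The receptors' median difference was -0.04 (log2), against 0.01 over all features. The comparison shares its EV arrays with the one above, so the values are given side by side and not as a repeat.

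Flt1 read 394 and 397 with Nanog+Sin3a, against 143 and 138 with EV. It rose 2.81-fold (log2 1.49, SE 0.10, adjusted p = 0.00221, n = 2 each), with the groups far apart. Tek read 90.6 and 89.9 with Nanog+Sin3a, against 35.0 and 42.9 with EV. It rose 2.33-fold (log2 1.22, SE 0.19, adjusted p = 0.0188, n = 2 each). With Nanog alone Tek read 57.4 and 66.5, a difference of 0.67 from EV that did not pass (adjusted p = 0.127).

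Fgfr3, an FGF receptor best known as a brake on bone growth, read 60.3 and 42.6 with Nanog+Sin3a, against 15.5 and 12.7 with EV. Both EV arrays were below the floor of 16, so the rise of at least 3.17-fold (log2 1.66, SE 0.29, adjusted p = 0.0273, n = 2 each) is a lower bound. Set to the floor, the EV arrays add no spread to the SE, so this p may be too small. With Nanog alone Fgfr3 read 26.5 and 43.4, at least 2.12-fold above EV, which did not pass (adjusted p = 0.120). The FGF receptors did not move together. Fgfr2 read -0.50 and 20.0 with Nanog+Sin3a, against 35.4 and 32.9 with EV, and fell by 0.93 on the log2 scale (SE 0.20, adjusted p = 0.0440, n = 2 each), with 1 Nanog+Sin3a array at the floor. Fgfr2 read 26.9 and 23.2 with Nanog, a difference of -0.45 from EV that did not pass (adjusted p = 0.282). Fgfr1 differed by -0.13 (adjusted p = 0.745) and Fgfr4 was not tested. Neither Fgfr2 nor Fgfr3 passed with a floor of 32. Their other probes did not exceed 16 on any array and give no check.

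Kit read 27.9 and 29.0 with Nanog+Sin3a, against 64.2 and 69.8 with EV. It was 2.35-fold lower (log2 -1.23, SE 0.21, adjusted p = 0.0249, n = 2 each). Egfr read 399 and 372 with Nanog+Sin3a, against 665 and 617 with EV, and fell by 0.73 on the log2 scale (SE 0.11, adjusted p = 0.0176, n = 2 each). Its 4 other measured probes had differences from -0.75 to -0.08. Axl read 610 and 606 with Nanog+Sin3a, against 993 and 881 with EV, and fell by 0.62 on the log2 scale (SE 0.11, adjusted p = 0.0283, n = 2 each). Ephb1, lower with Nanog alone, read 246 and 266 with Nanog+Sin3a and differed from EV by -0.11 (adjusted p = 0.589).

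The 6 tested receptors named next had the largest differences between Nanog+Sin3a and EV among those not past any threshold, and none passed. Mertk averaged 42.8 ± 3.39 (SD, n = 2) with Nanog+Sin3a and 69.1 ± 13.0 with EV (log2 -0.68, adjusted p = 0.0944). Ret averaged 62.8 ± 7.00 with Nanog+Sin3a and 41.8 ± 4.88 with EV (log2 0.59, adjusted p = 0.123). The arrays did not overlap for either gene. Epha2 averaged 125 ± 6.65 with Nanog+Sin3a and 104 ± 14.8 with EV (log2 0.27). Epha4 averaged 22.7 ± 3.82 with Nanog+Sin3a and 26.9 ± 2.90 with EV (log2 -0.25). Epha3 and Met, a receptor for hepatocyte growth factor, differed by 0.43 and -0.28 with at least 1 array of each group at the floor. The other 6 dim receptors (Insr, Pdgfra, Fgfr1, Ptk7, Erbb2 and Ddr1) had differences between -0.23 and 0.20, with 95% intervals as wide as -0.71 to 1.10 for Pdgfra.

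The bright receptors Ryk and Ephb4 stayed close to EV. Ryk read 980 and 1083 with Nanog and 1118 and 1001 with Nanog+Sin3a, against 1072 and 1015 with EV. Its difference was -0.02 with Nanog (95% interval -0.25 to 0.22) and 0.02 with Nanog+Sin3a (-0.21 to 0.25). Ephb4 read 777 and 575 with Nanog and 639 and 674 with Nanog+Sin3a, against 729 and 681 with EV. Its difference was -0.08 with Nanog (95% interval -0.43 to 0.28) and -0.10 with Nanog+Sin3a (-0.46 to 0.25). The intervals leave room for changes of up to about those bounds. A second Ryk probe gave 0.21 and 0.33 in these comparisons, and the 2 other Ephb4 probes gave -0.28 and 0.23 with Nanog and -0.28 and 0.09 with Nanog+Sin3a.

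On the Sin3a arrays Kit read 75.2 and 13.0, Fgfr2 29.5 and -12.2, and Fgfr3 7.70 and -12.9. On the first of them Kit stood above both EV arrays, Fgfr2 stood below both, and Fgfr3 was below the floor as in EV. Egfr read 696 and 611 there. None of the 7 calls for Nanog+Sin3a held without either Nanog+Sin3a array or either EV array, and 3 (Egfr, Flt1 and Kit) passed without the first Nanog array. With all 8 arrays limma called 0 of 25 tested receptors (5 at an unadjusted p under 0.05) and 35 features, or 0.256%; on the bright features it called Axl for both comparisons with EV (adjusted p = 0.00460 for Nanog and 0.00209 for Nanog+Sin3a), where 9.65% and 17% of features were called.

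**Figure D3:**
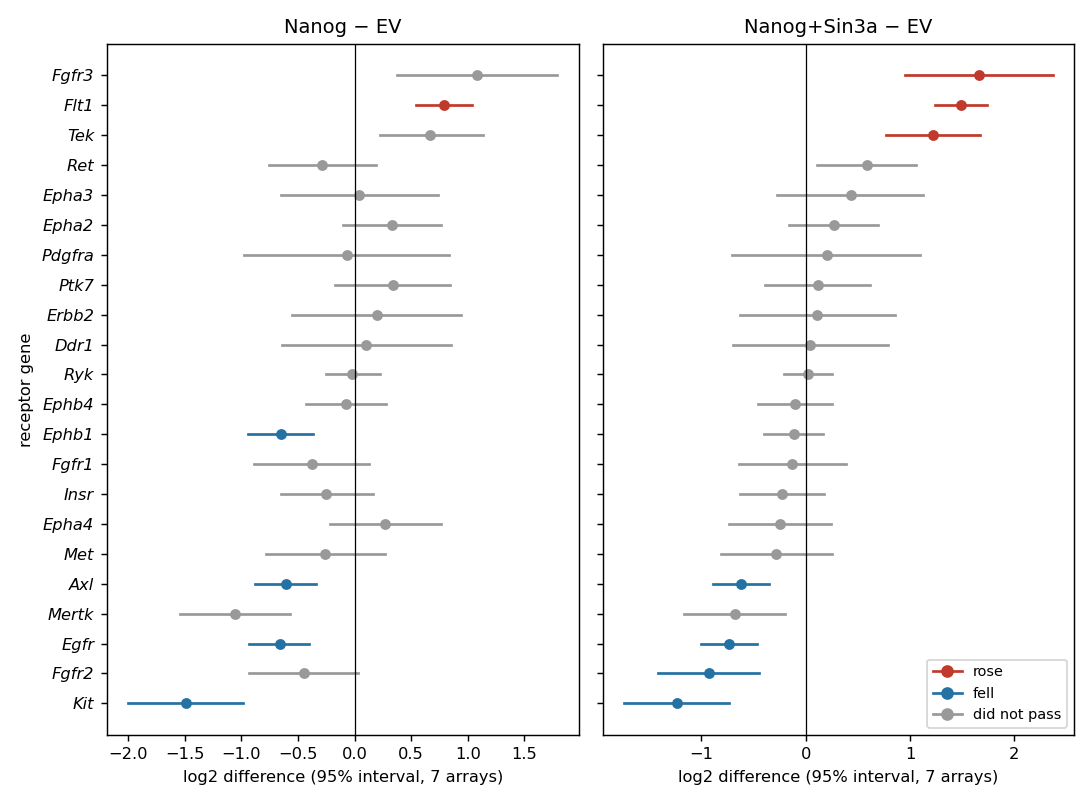
Log2 differences from EV of the 22 tested receptors with Nanog (left) and Nanog+Sin3a (right), from the 7-array fit, with 95% intervals as lines. Fgfr3, Flt1 and Tek sit farthest to the right with Nanog+Sin3a, and Kit farthest to the left in both panels; grey points did not pass.

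**Figure D4:**
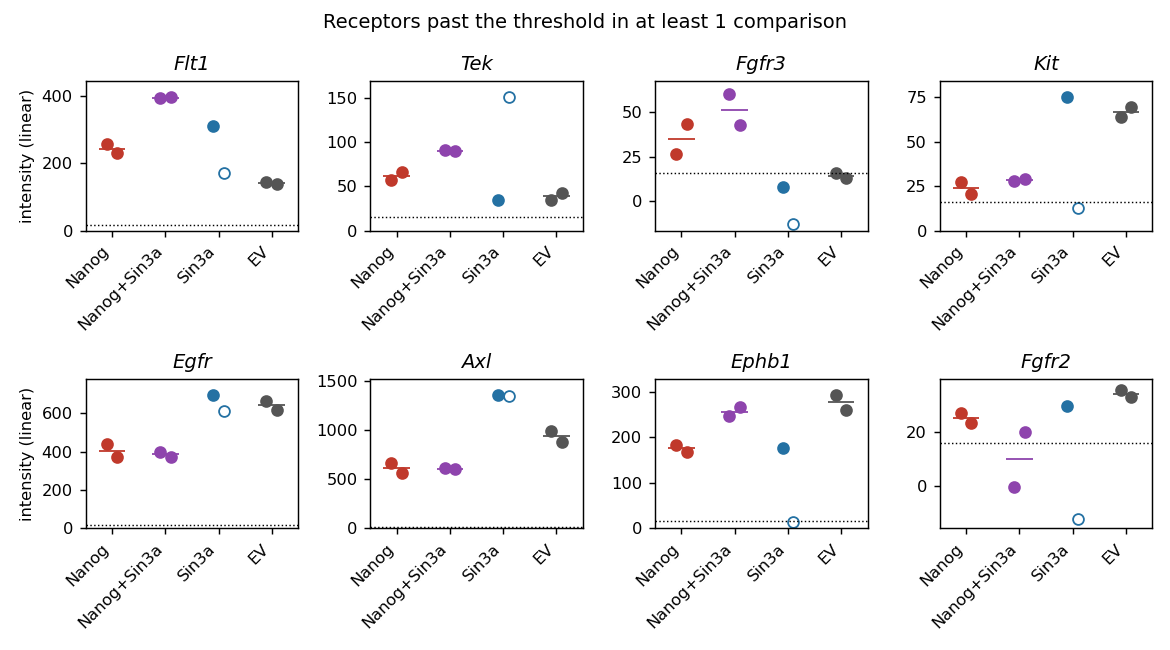
Linear intensity on each array for the 8 receptors past the threshold in at least 1 comparison, with short lines at the mean of 2 arrays and a dotted line at the floor of 16. The open circle is the second Sin3a array, and no mean is drawn for Sin3a. Flt1 is highest in Nanog+Sin3a at 394 and 397, and Kit is near the floor in both groups with Nanog.

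All arrays with the Nanog transgene against all without it asks what followed Nanog with or without Sin3a, in 4 arrays against 3. The comparison averaged group means, so the first Sin3a array alone weighed as much as both EV arrays together. Tek, Flt1 and Fgfr3 were higher and Axl, Kit and Egfr lower with Nanog, in limma over 12886 features. The 6 calls were 27.3% of 22 tested receptors, where 8.02% of all features were called (3.89% up, 4.13% down). Axl read 563 to 665 on the 4 Nanog-carrying arrays, against 881 to 1358 on the 3 others, with no overlap. Its difference was -0.89 (SE 0.09, adjusted p = 0.00416). The 6 receptors called here are those whose promoters are printed above. Fgfr3 entered the test only through the 4 arrays with Nanog. The 3 others were set to the floor and add no spread to its SE, so its p may be too small. Kit differed by -1.45 (SE 0.17, adjusted p = 0.00612) and Egfr by -0.76 (SE 0.09, adjusted p = 0.00624), both without overlap. Tek differed by 1.02 (SE 0.15, adjusted p = 0.0134) and Fgfr3 by at least 1.37 (SE 0.23, adjusted p = 0.0211), again without overlap among the 7 arrays, though Tek read 151 on the second Sin3a array.

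Flt1 was the exception among these 6, since its arrays overlapped. It read 231 to 397 with Nanog, against 138 to 312 without it, and 312 was the first Sin3a array. The difference was 0.57 (SE 0.08, adjusted p = 0.0135). With all 8 arrays Axl (-0.88, adjusted p = 0.00982) and Egfr (-0.71, adjusted p = 0.0354) passed, where 0.979% of features were called, and on the bright features, where 26.5% were called, Axl passed (adjusted p = 8.78e-07). No receptor passed without either EV array.

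Nanog+Sin3a against Nanog asks what Sin3a added on top of Nanog. The Nanog probe also read lower with Nanog+Sin3a, at 290 and 285, against 365 and 486 with Nanog. The part of that in the receptor differences was not tested. None of the 22 tested receptors passed in limma (6 at an unadjusted p under 0.05), where 0.0155% of features (2 of 12886) were called, and 0 passed with all 8 arrays or among the 3 bright receptors (0.261% of bright features called). Flt1 read 394 and 397 with Nanog+Sin3a, against 256 and 231 with Nanog, without overlap (log2 0.70, SE 0.10, 95% interval 0.45 to 0.95, adjusted p = 0.167). Ret read 57.8 and 67.7 with Nanog+Sin3a, against 32 and 36.4 with Nanog (log2 0.87, SE 0.20, adjusted p = 0.252). Ephb1 read 246 and 266 with Nanog+Sin3a, against 184 and 169 with Nanog (log2 0.54, SE 0.12, adjusted p = 0.252). For Axl, Egfr and Kit the differences were -0.01 (95% interval -0.28 to 0.26), -0.07 (-0.34 to 0.20) and 0.26 (-0.25 to 0.77).

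Sin3a against EV asks what Sin3a did alone, and the noisy array restricts it to Axl, Ephb4 and Ryk. None of the 3 passed in limma on the 2300 bright features (1 at an unadjusted p under 0.05), where 0.174% of features were called. Axl read 1358 and 1344 with Sin3a, against 993 and 881 with EV, and both Sin3a arrays lay above both EV arrays (log2 0.53, SE 0.12, 95% interval 0.27 to 0.79, adjusted p = 0.0990). It passed without either Nanog array, the count then being 1. Ephb4 read 811 and 922 with Sin3a, against 729 and 681 with EV (log2 0.30, SE 0.14, adjusted p = 0.641). Ryk read 1214 and 1230 with Sin3a, against 1072 and 1015 with EV (log2 0.23, SE 0.11, adjusted p = 0.670). For Ephb4 and Ryk, too, both Sin3a arrays lay above both EV arrays.

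Among dim receptors only the first Sin3a array is usable, and in 7 arrays 0 of 22 receptors passed (3 at an unadjusted p under 0.05) and 0% of features were called. Flt1 read 312 and 170 with Sin3a, against 143 and 138 with EV (log2 1.15 from the first array, SE 0.13, adjusted p = 0.236). The spread of the lone Sin3a array is there assumed from the remaining groups. The interaction (the effect of Sin3a in the presence of Nanog less that in its absence) called none of the 3 bright receptors (0.0435% of features called) and none of 22 in 7 arrays. Axl had the interaction of largest size among the bright receptors, at -0.54 (SE 0.18, adjusted p = 0.617).

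The rest of the pathway is described from lists chosen by role. Of 64 ligands, 33 were tested. With Nanog against EV 1 rose, 2 fell and 30 did not pass (9.09% called, where 2.69% of all features were), and with Nanog+Sin3a 3 rose, 2 fell and 28 did not pass (15.2%, where 7.45% of all features were). The ligands' median difference was 0.08 with Nanog and 0.12 with Nanog+Sin3a, against 0.00 and 0.01 over all features. Wnt5a, a ligand of Ror and Ryk receptors, rose at least 4.96-fold with Nanog (log2 2.31, SE 0.20, adjusted p = 0.00537), from the floor in EV. With Nanog+Sin3a it rose at least 2.82-fold (log2 1.50, adjusted p = 0.0132). It exceeded the floor only on arrays with Nanog, so the EV arrays add no spread and these p-values may be too small. A second Wnt5a probe gave 0.57 and 0.20. Bdnf, the ligand of Ntrk2, read 78.7 and 69.0 with Nanog and 67.9 and 61.6 with Nanog+Sin3a, against 185 and 181 with EV. It fell by 1.31 on the log2 scale with Nanog (adjusted p = 0.0117) and by 1.50 with both (adjusted p = 0.00551). Ptn, pleiotrophin, fell to the floor in both groups (log2 -1.09, adjusted p = 0.0288 with Nanog and 0.0185 with both), from 32.3 and 36.1 with EV. It entered the test only through arrays without Nanog. The arrays with Nanog, set to the floor, add no spread, so these p-values may be too small. A second Ptn probe did not exceed the floor on the 7 arrays.

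Gas6, the ligand shared by Axl, Mertk and Tyro3, read 444 and 422 with Nanog+Sin3a, against 263 and 236 with EV. It rose by 0.80 on the log2 scale (SE 0.10, adjusted p = 0.0116) where Axl fell, and its difference with Nanog alone was 0.38 (adjusted p = 0.122). Nrg1, a neuregulin that binds Erbb3, rose by 0.80 with Nanog+Sin3a (SE 0.17, adjusted p = 0.0445).

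Of 54 adaptors and signal carriers, 33 were tested; 1 rose and 32 did not pass with Nanog (3.03% called), and 2 rose, 1 fell and 30 did not pass with Nanog+Sin3a (9.09%). Those shares lay near the 2.69% and 7.45% of all features called. The list's median difference was -0.01 with Nanog and 0.17 with Nanog+Sin3a. Grb10, an imprinted adaptor that damps insulin receptor signalling, read 509 and 402 with Nanog and 541 and 643 with Nanog+Sin3a, against 256 and 262 with EV. It rose 1.75-fold (log2 0.81, SE 0.15, adjusted p = 0.0459) with Nanog and 2.28-fold (log2 1.19, adjusted p = 0.00984) with Nanog+Sin3a. Shc1, an adaptor of the Ras pathway, rose by 0.57 (SE 0.09, adjusted p = 0.0203) with Nanog+Sin3a. Pdpk1, the kinase that activates Akt, fell by 0.95 on the log2 scale (SE 0.16, adjusted p = 0.0257), though its other probe, of similar brightness, gave -0.06.

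Of 43 feedback and turnover genes, 29 were tested; none passed with Nanog, and 2 fell and 27 did not pass with Nanog+Sin3a (6.90% called, where 7.45% of all features were). The list's median difference was -0.01 with Nanog and -0.07 with Nanog+Sin3a. Socs3, a suppressor of cytokine signalling, fell by 0.91 on the log2 scale (SE 0.10, adjusted p = 0.00818). Sulf2, a sulfatase that trims the heparan sulfate on which FGFs dock, fell by 0.83 (SE 0.13, adjusted p = 0.0212), and its other probe gave -0.70. Of 12 other receptor kinases 4 were tested and none passed. Igf1r and Aatk had Nanog+Sin3a minus EV differences of 0.57 (adjusted p = 0.200) and -0.15 (0.729). With Nanog+Sin3a against Nanog, none of the genes of these 4 lists passed. With Nanog against without it, 2 ligands rose and 3 fell, among them Pdgfc (log2 -0.93, adjusted p = 0.0307), 2 adaptors rose and 2 fell, among them Grb7 (log2 -1.07, adjusted p = 0.0103), and Socs3 and Sulf2 fell. That is 15.2% of the ligands, 12.1% of the adaptors and 6.90% of the feedback genes tested, where 8.02% of all features were called. Neither Pdgfc nor Grb7 passed against EV. On the first Sin3a array, which has much weight here, they read 49.3 and 51.7, above both EV arrays. On bright features none of the 2 ligands, 5 adaptors and 2 feedback genes tested passed for Sin3a against EV or the interaction.

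Several of these receptors mark other cell types, so marker genes were read beside them; in bulk RNA fewer cells of a type and less RNA per cell cannot be told apart. Flt1 and Tek are endothelial receptors. Of 10 endothelial markers, 5 exceeded the floor on at least 2 of 7 arrays, and Cldn5, Emcn, Eng and Vwf were at or below it on all 7. Their summed intensity was 62.2 to 97.1 with Nanog, 28 to 60.1 with Nanog+Sin3a and 109 on the first Sin3a array, against 55.7 to 91.8 with EV. No endothelial marker rose with Nanog or Nanog+Sin3a, and Esam fell with Nanog+Sin3a (log2 -1.08, adjusted p = 0.0427). None of 9 blood markers exceeded the floor on 2 arrays. The summed intensity of 10 mesenchymal markers was 1410 to 1470 with Nanog, 1130 to 1210 with Nanog+Sin3a and 1360 on the first Sin3a array, against 872 to 956 with EV, and 1 rose with Nanog and 2 with Nanog+Sin3a; Col1a2, Col3a1, Lum, Postn and Prrx1 were at or below the floor on 7 arrays. Of 7 primitive endoderm markers 2 exceeded the floor on at least 2 of 7 arrays, and Gata4, Gata6, Lama1 and Sox17 were at or below it on all 7. Their sum was 870 to 1060 with Nanog, 724 to 778 with Nanog+Sin3a and 1230 on the first Sin3a array, against 1280 to 1400 with EV. Nearly all of that sum was Dab2. It read 1022.9 and 852.6 with Nanog and 753.6 and 722.6 with Nanog+Sin3a, against 1371.3 and 1256.5 with EV. Dab2 fell with Nanog+Sin3a (log2 -0.83, adjusted p = 0.0132). The neural stem cell markers summed to 92.4 to 98.2 with Nanog, 60.7 to 77.7 with Nanog+Sin3a and 165 on the first Sin3a array, against 108 to 124 with EV. Nes fell with Nanog+Sin3a (log2 -0.78, adjusted p = 0.0355) and was lower with Nanog than without it. A dimmer second Nes probe differed from EV by 0.04 with Nanog and -0.22 with Nanog+Sin3a. Sox2 was also called lower with Nanog than without it, but only through the first Sin3a array, at 42.6. Against EV Sox2 differed by 0.00 with Nanog and 0.06 with Nanog+Sin3a. Its only other value above the floor on the 7 arrays was 17.4 with Nanog+Sin3a. Among pluripotency markers, besides the Nanog probe, Sall4 fell with Nanog+Sin3a (log2 -1.37, adjusted p = 0.00850). No epithelial or neuron and glia marker passed in the comparisons of Nanog or Nanog+Sin3a with EV. The part of these markers in the receptor changes was not tested.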

How the data were processed

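Illumina bead arrays measured RNA in 8 samples (4 groups of 2), grouped by the labels' descriptions. The values are deposited intensities on a linear scale, made with GenomeStudio per the submitters' processing notes; version, background method and normalization are not given in the sources used here. On every array the deposited intensities ran from -24 to 14965, and once sorted, 7 arrays lay within 0.741% of a common profile, as after quantile normalization. Intensities were raised to a floor of 16 and turned into log2 values from the deposited table. The floor understates changes of dim genes and hides their spread, so p-values may be too small where a group lies at it. Each symbol was represented by its brightest probe over 8 arrays, unnamed probes were kept, and features above the floor on at least 2 arrays were tested with limma 3.58.1 (R 4.3.3; lmFit and eBayes with a trend, 1 coefficient per group, two-sided, Benjamini-Hochberg adjusted p under 0.05). The 7-array fit had 3 residual degrees of freedom and the 8-array fit of bright features 4. The number of arrays limits the precision. Members, lists, tests and the choice of arrays were made with earlier results of these data known. All 46 members are accounted for; array values are given for those past a threshold and for bright ones, group values for the 6 others with the largest Nanog+Sin3a difference from EV, and up to 4 genes from each list. The script was tested on simulated data. Same-numbered arrays did not deviate together (correlations -0.05, -0.06 and -0.02), so the numbers were not taken as pairs. Alternatives were the floor, the filter, centring, the probe rule, the trend, the block, the arrays used and each array left out.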

Additional observations from a re-analysis of the deposited data

Results flagged for a closer look

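For 3 receptors the effect of Sin3a ran in opposite directions with and without Nanog. The arrays did not overlap on either side, the noisy second Sin3a array included. The effects given below use the first Sin3a array alone. How many of all features do the same was not counted, so these 3 are not read as a result about receptors. Ephb1 had a Sin3a effect of 0.54 (log2) with Nanog and -0.66 without it, a difference of 1.20 (SE 0.19, adjusted p = 0.532 in limma over 12886 features). Ret had effects of 0.87 with Nanog and -0.25 without it, a difference of 1.13 (SE 0.31, adjusted p = 0.818). Mertk had effects of 0.38 with Nanog and -0.45 without it, a difference of 0.83 (SE 0.32, adjusted p = 0.869). The test of the difference was not passed for any of the 3, and the effect without Nanog rests on 1 Sin3a array. Groups of 2 arrays are too small for a check of single outlying arrays.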

How the results depend on the processing

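Every one of 267 recomputed values of 18 receptor differences kept its direction, and 52 of them fell below the threshold in settings that leave out no array. Many of the 267 could not change direction. The filter, the trend and arrays of groups outside a comparison do not alter its difference, only its p-value. Of 5 calls for Nanog against EV, 0 were left with no filter, 1 was made with the mean over probes (Mertk, not one of the 5), and 3 with no trend (Flt1, Kit and Mertk). The replicate number as a block, which does not pair these arrays, left 3 for Nanog against EV (Egfr, Flt1 and Kit) and 6 for Nanog+Sin3a against EV, and changed no other count of receptors. Of 7 calls for Nanog+Sin3a against EV, 1 was left with no filter (Flt1) and 2 with the mean over probes (Flt1 and Tek). All features of 8 arrays gave 0 for both comparisons with EV and 2 for with against without Nanog (Axl and Egfr), and bright features of 8 arrays gave 1 (Axl) in each of the 3. Leaving out 1 array at a time gave 0 to 6 calls for Nanog against EV, 0 to 7 for Nanog+Sin3a against EV, 0 to 6 for with against without Nanog, 0 to 1 for Sin3a against EV, and 0 for Nanog+Sin3a against Nanog and for the interaction. With against without Nanog had 0 calls once an EV array was dropped, 3 once Nanog+Sin3a replicate 1 was dropped and 2 for replicate 2, and it could not be fitted without the first Sin3a array. Fewer arrays leave fewer residual degrees of freedom; other causes were not tested. A floor of 32 gave 7 calls for Nanog against EV (Mertk and Tek added), 7 for Nanog+Sin3a against EV (Mertk and Ret added, Fgfr2 and Fgfr3 lost) and 6 for with against without Nanog (Mertk added, Fgfr3 lost), and the alternative without a filter was not run for bright features. Signal near the floor limits most receptors.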
